A study of Mus musculus with 6 samples.

Results

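Cholesterol metabolism was followed through 34 genes in mouse colon RNA, chosen by symbol for their roles in cholesterol synthesis, sterol sensing, uptake, esterification and efflux. The choice was made with earlier results of these data known. All 34 had a row among the 21899 genes of the count table, and all 34 passed the filter on low counts that left 14553 genes for testing. Libraries of 2 groups were compared, 3 in each. The KO group came from Adamts4 knockout mice and the WT group from wild-type mice, and both had received 2.5% dextran sodium sulfate (DSS) for 7 days. DSS in the drinking water damages the lining of the colon and brings on colitis, and ADAMTS4 is a secreted protease that cleaves large proteoglycans. The sources used here do not give the strain, age, sex, litter or knockout allele, so loss of the protease and a difference in genetic background cannot be told apart. Untreated animals were not analysed here. The labels number the libraries without stating that each is a separate animal. The p-values then reflect only the scatter among these libraries, which may be technical.

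Cells make cholesterol from acetyl-CoA through mevalonate and farnesyl diphosphate, and then through squalene and a series of sterols. The transcription factor SREBP2 switches on the genes of this route when sterol in the membrane of the endoplasmic reticulum is low, because the escort protein SCAP then carries it to the Golgi for cleavage, while the INSIG proteins hold it back when sterol is plentiful. The liver X receptors (LXR) work on the opposite side. They bind oxysterols, which are oxidised forms of cholesterol, and switch on the genes of sterol efflux. In the colon both programmes run in epithelial cells, and efflux genes are also well known from lipid-laden macrophages.

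Of the 34 genes, 21 are known SREBP2 targets, namely 18 synthesis enzymes with Insig1, Stard4 and Tmem97. Another 4 are known LXR targets (Abca1, Abcg1, Mylip and Srebf1). The remaining 9 were placed in neither list. They are the regulators Scap, Insig2, Srebf2, Nr1h2 and Nr1h3 and the uptake and esterification genes Npc1l1, Scarb1, Soat1 and Soat2. Being left out of a list does not mean that a gene is no target. The 21 listed SREBP2 targets all had a log2 fold change above 0 for KO against WT, as did 54.2% of all tested genes. For 17 of them every KO library was above every WT library, against 9.35% of tested genes. The efflux genes Abca1, Abcg1 and Mylip were lower in KO. None of the 34 genes passed the main test.

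Promoter sequences are shown first, for genes from both sides of the comparison. RefSeq promoter sequences of build GRCm38.p6 were matched by symbol for 27 of the 34 genes. No entry was matched for Fdps, Fdft1, Sqle, Stard4, Abcg1, Scarb1 and Soat2. Hmgcs1 is shown as the one SREBP2 target with an exact match to the searched sterol element, Hsd17b7 and Insig1 as further SREBP2 targets, Srebf2 as the gene of the factor itself, and Mylip and Abca1 as LXR targets. The windows lie at chr13:119690101-119690350, plus strand (Hmgcs1), chr1:169969242-169969455, minus strand (Hsd17b7), chr5:28071162-28071362, plus strand (Insig1), chr15:82147019-82147180, plus strand (Srebf2), chr13:45389492-45389741, plus strand (Mylip) and chr4:53159896-53160145, minus strand (Abca1). Each runs 5′ to 3′ on the strand of the gene and ends before the annotated start of the gene. Capitals mark matches to the sterol regulatory element core TCACCCCAC with at most 1 mismatch and to the CCAAT box (ATTGG on the other strand), which is bound by NF-Y, a known partner of SREBP2.
Hmgcs1: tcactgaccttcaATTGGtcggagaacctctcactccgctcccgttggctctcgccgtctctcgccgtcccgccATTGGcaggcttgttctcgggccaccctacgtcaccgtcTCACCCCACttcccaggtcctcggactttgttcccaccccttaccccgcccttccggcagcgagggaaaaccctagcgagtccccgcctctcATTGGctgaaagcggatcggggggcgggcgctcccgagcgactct
Hsd17b7: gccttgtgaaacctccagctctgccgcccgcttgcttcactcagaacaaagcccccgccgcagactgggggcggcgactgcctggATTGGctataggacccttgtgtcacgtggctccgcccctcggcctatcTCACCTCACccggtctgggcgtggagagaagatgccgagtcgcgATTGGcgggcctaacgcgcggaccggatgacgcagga
Insig1: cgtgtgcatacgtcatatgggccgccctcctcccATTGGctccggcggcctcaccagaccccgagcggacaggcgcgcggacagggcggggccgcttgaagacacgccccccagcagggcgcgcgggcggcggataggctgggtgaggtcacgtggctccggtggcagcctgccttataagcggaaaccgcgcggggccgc
Srebf2: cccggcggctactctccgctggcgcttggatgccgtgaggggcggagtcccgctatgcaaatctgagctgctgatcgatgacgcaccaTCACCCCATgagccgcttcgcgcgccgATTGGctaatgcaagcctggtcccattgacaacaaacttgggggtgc
Mylip: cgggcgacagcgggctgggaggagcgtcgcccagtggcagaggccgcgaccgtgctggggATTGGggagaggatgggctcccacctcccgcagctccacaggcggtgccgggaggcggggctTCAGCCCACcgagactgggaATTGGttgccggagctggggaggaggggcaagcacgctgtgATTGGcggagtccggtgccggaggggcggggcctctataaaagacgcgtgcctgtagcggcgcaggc
Abca1: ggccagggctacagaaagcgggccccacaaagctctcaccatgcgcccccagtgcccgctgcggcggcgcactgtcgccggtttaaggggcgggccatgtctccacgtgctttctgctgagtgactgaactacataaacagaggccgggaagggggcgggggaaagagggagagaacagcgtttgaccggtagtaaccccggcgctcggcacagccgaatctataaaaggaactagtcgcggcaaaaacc

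Motifs were searched on both strands in the 250 bases before each RefSeq start, and a gene with several starts counted as holding a motif if any of its windows did. The exact core TCACCCCAC stood in 1 of the 17 SREBP2 targets with an entry (Hmgcs1, 137 bases before the start) and in 0.555% of the 27025 genes in the promoter table. With at most 1 mismatch, the core stood in 4 of the 17 (Hmgcs1, Hsd17b7, Acat2 and Nsdhl), against 9.69% of all genes in the promoter table and 10.9% of tested genes. Srebf2, Mylip and Nr1h3 also held such a match. The CCAAT box was more common. It stood in 16 of the 17 SREBP2 targets, the exception being Acat2, against 37.5% of all genes and 39.8% of tested genes. The searched windows, unlike those printed above, were not cut at the annotated start of the gene. For Idi1, Cyp51, Msmo1, Tm7sf2 and Dhcr7, every CCAAT match lay inside the annotated gene. The Sp1 box GGGCGG also stood in 16 of the 17, against 61.6% of tested genes. AGGTCA, a core element of nuclear receptors such as LXR, stood in 3 of the 17 and in 0 of the 3 LXR targets with an entry, against 13.5% of tested genes. No match of one motif overlapped a match of another in these windows. A match is a description of the letters in the window and not evidence of binding.

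The 6 libraries held 15786214 to 22932125 counts. Adamts4 had 0 counts in each KO library and 900, 992 and 997 counts in the WT libraries, so the targeted gene went against no label. On the first principal component, with 42.9% of the variance, KO 3 had a coordinate of 73.1 against -47.0 to 26.5 in the other libraries. Mitochondrially encoded genes took 4.03% to 9.50% of the counts, the highest share being in KO 3. Values that moved by a large factor without KO 3 are given both ways. Values below are CPM (read counts relative to library size, scaled by TMM factors), listed in the order of replicates 1, 2 and 3. Means carry the SD over the 3 libraries of a group. Fold changes are log2 values of KO relative to WT with their SE, and adjusted p-values are by Benjamini-Hochberg over all tested genes.

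Across the 34 genes, 23 had a log2 fold change above 0 and 11 below, with a median of 0.60 against 0.03 for all tested genes, of which 54.2% were above 0 and 45.8% below. None passed edgeR's quasi-likelihood test at an adjusted p below 0.05, where the adjusted p ran from 0.0723 to 0.927. That test called 0.00687% of all tested genes higher in KO and 0.151% lower. At an unadjusted p below 0.05, 19 of the 34 were higher in KO (background 5.17%) and 3 were lower (background 7.85%). DESeq2 on the same counts called 16 higher (background 0.804%) and 3 lower (background 2.96%), and limma-voom called 0 in either direction (background 0.0137% higher and 0.186% lower). Among the 15 alternatives run, DESeq2 on all libraries gave the only adjusted p below 0.05 for any of the 34 genes. The KO and WT values did not overlap for 18 genes that were higher in KO (background 9.35%) and 5 that were lower (background 10.2%). Because the 34 genes were chosen with earlier results of these data known, these counts describe them and are no independent support.

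**Figure D1:**
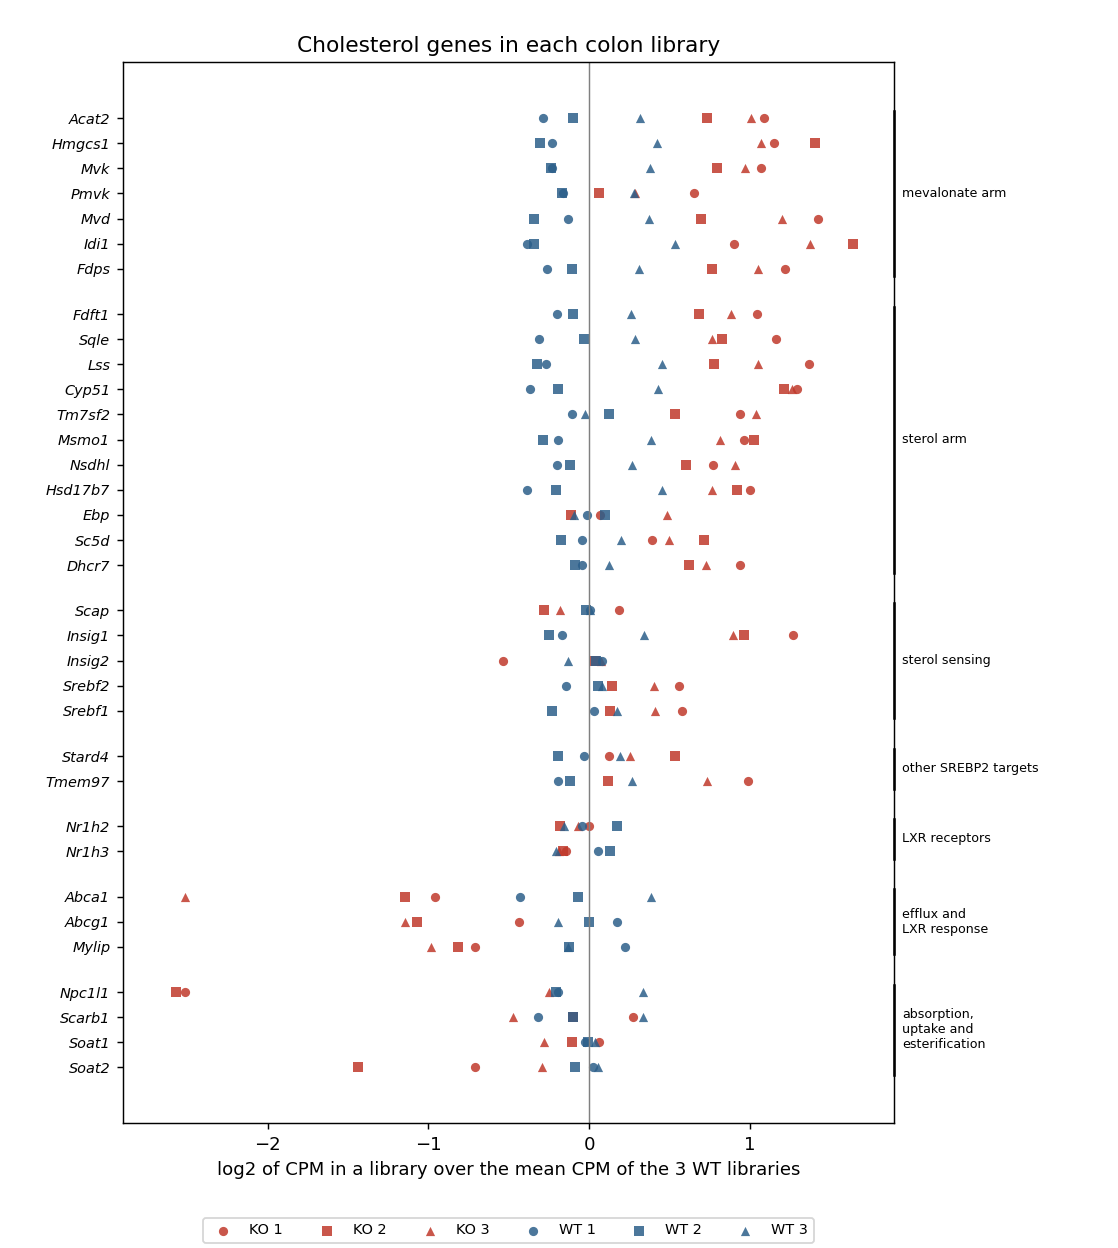
CPM of each of the 34 cholesterol genes in each library, as the log2 ratio to the mean of the 3 WT libraries (horizontal axis), with red symbols for KO and blue for WT and one symbol shape per replicate number. The red symbols lie right of all blue ones for nearly all genes of the mevalonate and sterol arms, for example Cyp51, and left of them for Abca1, Abcg1 and Mylip, while Scap, Insig2, the LXR receptors, Scarb1 and Soat1 overlap.

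The mevalonate arm, from acetyl-CoA to farnesyl diphosphate, was represented by 7 enzymes. All 7 had a log2 fold change above 0 (background 54.2%), with a median of 1.03. Of these, 6 had an unadjusted p below 0.05 (background 5.17%) and were called higher by DESeq2 (background 0.804%). The same 6 did not overlap between the groups (background 9.35%). Hmgcs1, the cytosolic synthase that makes the precursor of mevalonate, had 355, 424 and 336 CPM in the KO libraries and 136, 129 and 214 CPM in the WT libraries. Every KO library was above every WT library, and WT 3 was the highest of the WT group. The means were 372 ± 46.4 CPM in KO and 159.8 ± 46.9 CPM in WT (SD, n = 3 each). Its log2 fold change was 1.22 ± 0.23 (95% interval 0.69 to 1.75), with an adjusted p of 0.0855 by edgeR and 6.33e-05 by DESeq2. Fdps, which joins isoprene units into farnesyl diphosphate, the branch point to sterols and prenylated proteins, had 211, 154 and 188 CPM in KO and 75.3, 83.8 and 112 CPM in WT. The groups again did not overlap, and the log2 fold change was 1.03 ± 0.20 (adjusted p 0.0895 by edgeR and 0.000293 by DESeq2). Acat2, the cytosolic thiolase that makes acetoacetyl-CoA, had 70.1, 55.0 and 66.4 CPM in KO and 27.1, 30.8 and 41.2 CPM in WT. WT 3 came nearest to the KO libraries for this gene too, and the log2 fold change was 0.95 ± 0.19 (adjusted p 0.102 by edgeR and 0.00142 by DESeq2). Acat2 lies beside the near-identical Acat3, to which reads could have been assigned in part. Acat3 had 13 counts in KO and 109 in WT, summed over libraries, few beside those of Acat2.

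The other 4 enzymes of this arm were Idi1, the isomerase of the isoprene units, and Mvk, Pmvk and Mvd, which phosphorylate and decarboxylate mevalonate. Idi1 had the highest log2 fold change of the 34 genes, 1.34 ± 0.29, and also a wide spread, with 100.1, 167 and 139 CPM in KO and 40.9, 42.3 and 77.5 CPM in WT. Leaving out each library in turn gave values from 1.16 to 1.70 for it. Mvd and Mvk had log2 fold changes of 1.14 ± 0.24 and 0.95 ± 0.21, and neither overlapped between the groups. Pmvk was the exception in the arm, with 31.8, 21.1 and 24.6 CPM in KO and 18.05, 18.03 and 24.6 CPM in WT. Its KO and WT values overlapped, and the 95% interval of its log2 fold change ran from -0.14 to 0.85.

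The sterol arm, from farnesyl diphosphate to cholesterol, was represented by 11 enzymes. All 11 had a log2 fold change above 0 (background 54.2%), with a median of 0.88. Of the 11, 10 had an unadjusted p below 0.05 (background 5.17%) and no overlap between the groups (background 9.35%). DESeq2 called 9 of them higher (background 0.804%). Fdft1, squalene synthase, takes the first step that leads only to sterols, and had 257, 199.5 and 229.5 CPM in KO and 108, 116 and 149 CPM in WT. The lowest KO library was above the highest WT library, with a log2 fold change of 0.88 ± 0.18 (adjusted p 0.102 by edgeR and 0.000762 by DESeq2). Sqle, squalene epoxidase and a rate-limiting step of the arm, had 228, 181 and 173 CPM in KO and 81.9, 99.6 and 124 CPM in WT. The log2 fold change was 0.93 ± 0.19 (adjusted p 0.115 by edgeR and 0.00145 by DESeq2), and KO 1 was the highest library.

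Cyp51, the lanosterol demethylase, had the smallest p-value of the 34 genes. It had 274, 259 and 269 CPM in KO and 86.8, 98.0 and 151 CPM in WT, with means of 267 ± 7.62 CPM in KO and 112 ± 34.1 CPM in WT (SD, n = 3 each). The 3 KO libraries lay close together, whereas WT 3 stood well above WT 1 and WT 2. Its log2 fold change was 1.26 ± 0.22 (95% interval 0.76 to 1.76), with an adjusted p of 0.0723 by edgeR and 1.65e-05 by DESeq2. Over the 15 alternatives the adjusted p ran from 1.65e-05, that of DESeq2, to 0.263. Without each library in turn, the value ran from 1.10 to 1.53. Msmo1, a sterol methyl oxidase, had 255, 266 and 229.8 CPM in KO and 114, 107 and 170.5 CPM in WT. The groups did not overlap, and its log2 fold change was 0.94 ± 0.20 (adjusted p 0.117 by edgeR and 0.00202 by DESeq2). Dhcr7, which makes cholesterol from its last precursor and whose substrate also gives vitamin D, had 158, 127 and 136 CPM in KO and 80.0, 77.4 and 89.7 CPM in WT. The WT libraries were close together for this gene, with a log2 fold change of 0.77 ± 0.14 (adjusted p 0.0848 by edgeR and 0.000516 by DESeq2).

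Of the remaining 6 enzymes of the arm, Lss, Hsd17b7, Tm7sf2, Nsdhl and Sc5d also did not overlap between the groups. Lss, which closes squalene epoxide into the sterol ring, had a log2 fold change of 1.09 ± 0.25. Tm7sf2, Nsdhl and Hsd17b7, a sterol reductase and a pair of enzymes that remove methyl groups, had 0.85 ± 0.20, 0.77 ± 0.17 and 0.90 ± 0.23. Sc5d, the sterol desaturase just before Dhcr7, had 0.54 ± 0.15 and was not called by DESeq2 (adjusted p 0.0971). Ebp, the sterol isomerase, was the one enzyme of the arm whose groups overlapped. It had 74.0, 65.3 and 98.6 CPM in KO and 70.0, 75.4 and 66.2 CPM in WT, and the 95% interval of its log2 fold change ran from -0.23 to 0.56. Only KO 3 was above the WT range, and without KO 3 the value was -0.017. Whether Ebp and Pmvk differed in response from the other enzymes was not tested. Compared per transcript length, in the length-corrected unit TPM, the sterol and mevalonate enzymes named here covered a wide range of levels. Fdps averaged 134 TPM in WT and 261 TPM in KO, Msmo1 118 TPM in WT and 220.0 TPM in KO, Cyp51 52.2 TPM in WT and 120.5 TPM in KO and Hsd17b7 9.47 TPM in WT and 16.1 TPM in KO.

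**Figure D2:**
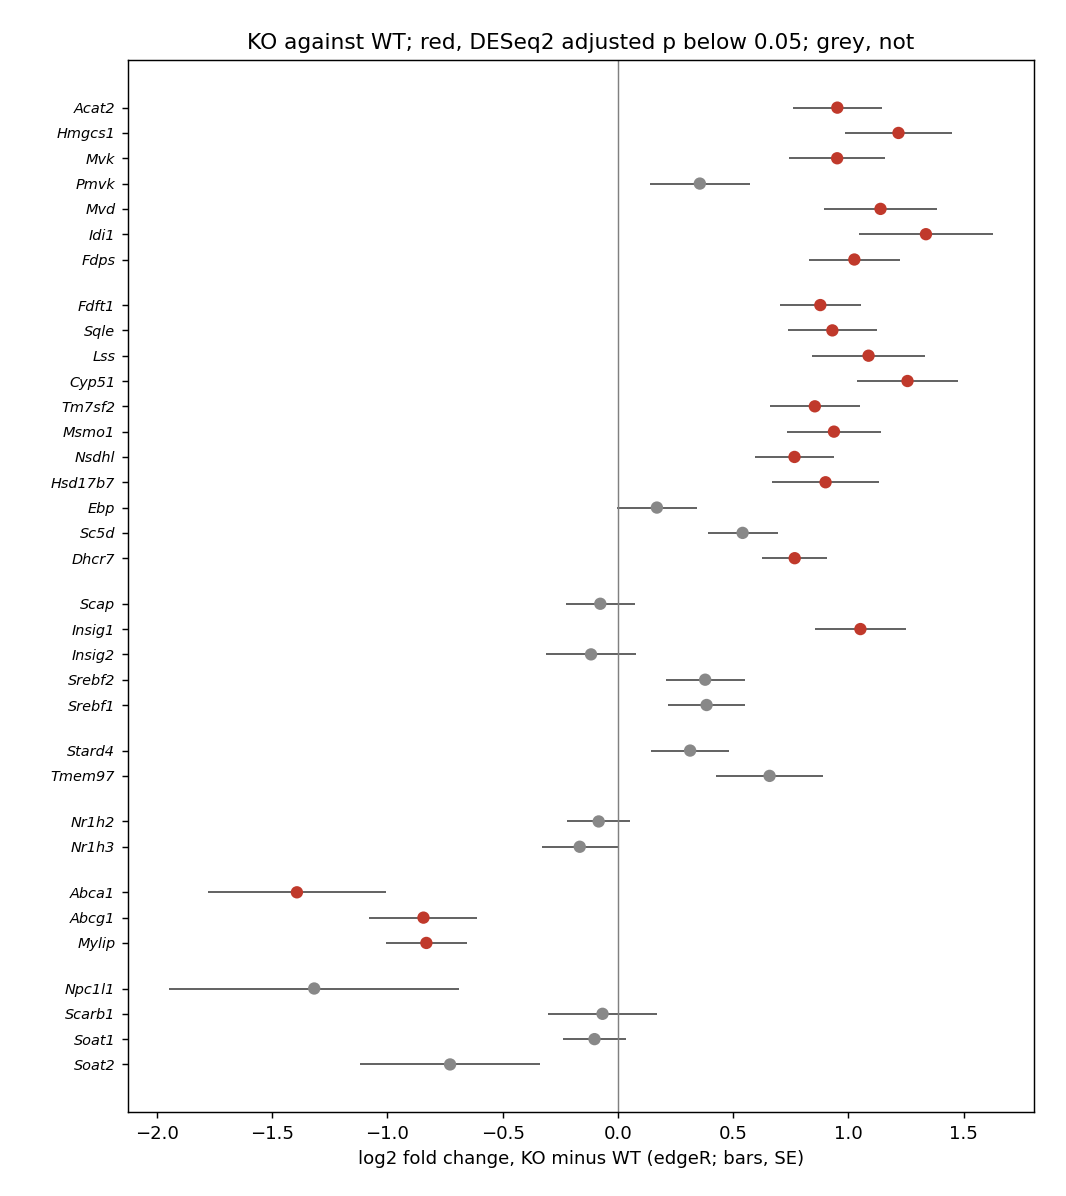
Log2 fold change of each of the 34 genes (points, KO minus WT, fitted by edgeR) with its SE (bars), in red where DESeq2 gave an adjusted p below 0.05 and grey where it did not. The synthesis enzymes lie between 0.17 (Ebp) and 1.34 (Idi1), and Abca1, Abcg1 and Mylip lie between -1.39 and -0.83.

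Among the 5 genes of sterol sensing, only Insig1 was called by DESeq2 (background 0.804% higher and 2.96% lower). INSIG1 retains the SCAP and SREBP complex in the endoplasmic reticulum and its gene is itself an SREBP target. It had 189.6, 153 and 146 CPM in KO and 69.8, 66.2 and 99.7 CPM in WT, with means of 163 ± 23.4 CPM in KO and 78.6 ± 18.4 CPM in WT (SD, n = 3 each). The groups did not overlap. Its log2 fold change was 1.05 ± 0.20 (95% interval 0.60 to 1.50), with an adjusted p of 0.0848 by edgeR and 0.000258 by DESeq2 (up to 0.335 over the 15 alternatives). Insig2, which has the same retention role but is not known as a strong SREBP2 target, had 25.9, 38.5 and 39.6 CPM in KO and 39.8, 38.7 and 34.4 CPM in WT. KO 1 was low and the other 5 libraries lay together, and the 95% interval of its log2 fold change ran from -0.56 to 0.33. Whether the paralogues differed from each other was not tested.

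Scap, the escort protein, had 89.3, 64.6 and 69.1 CPM in KO and 78.8, 77.5 and 78.8 CPM in WT, with KO libraries on both sides of the narrow WT range. That gave a log2 fold change of -0.08 ± 0.15 (95% interval -0.42 to 0.27). Srebf2, the gene of SREBP2, had 342, 256 and 307 CPM in KO and 209.6, 241 and 245 CPM in WT. Its KO libraries were all above its WT libraries, KO 2 only narrowly, and the log2 fold change was 0.38 ± 0.17 (95% interval -0.01 to 0.77, adjusted p 0.396 by edgeR and 0.297 by DESeq2). Srebf1, which encodes the isoforms SREBP1a and SREBP1c and is induced by LXR as well as by SREBPs, had 116, 85.1 and 104 CPM in KO and 79.4, 66.4 and 87.9 CPM in WT. KO 2 lay within the WT range, and the log2 fold change was 0.39 ± 0.17 (adjusted p 0.383 by edgeR and 0.370 by DESeq2). The gene counts do not separate the isoforms.

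The last pair of SREBP2 targets are sterol-binding proteins. Stard4, a soluble sterol carrier, had 151, 199.9 and 165 CPM in KO and 135, 121 and 158 CPM in WT, which overlapped. The log2 fold change of Stard4 was 0.31 ± 0.17 (adjusted p 0.471 by edgeR). Tmem97, a sterol-binding membrane protein also known as the sigma-2 receptor, had 119, 65.1 and 99.8 CPM in KO and 52.5, 55.3 and 72.0 CPM in WT. KO 2 lay below WT 3, and the log2 fold change was 0.66 ± 0.23 (adjusted p 0.300 by edgeR and 0.156 by DESeq2).

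Taken over the 21 listed SREBP2 targets, the log2 fold change was above 0 for 21, against 54.2% of all tested genes. The median was 0.93 and the range 0.17 to 1.34. The list was chosen with results of these libraries known, so the count of 21 above 0 depends on that choice. Srebf2 (0.38) and Npc1l1 (-1.32) were not in it, and Npc1l1 lay below 0. Of the 21, 18 had an unadjusted p below 0.05 by edgeR, 17 did not overlap between the groups, and DESeq2 called 16 higher, against the background shares given above. DESeq2 without KO 3, a setting chosen after the data were seen, also called 16 (background 0.818%). The summed level of the 21 genes was 2940, 2729 and 2736 CPM in KO and 1307, 1325 and 1844 CPM in WT. The KO libraries lay close together and the WT group was split, WT 3 being the highest WT library for 19 of the 21 genes. KO 1 was the highest of all libraries for 13 genes, KO 2 for 5 and KO 3 for 3. The lowest library was WT 1 for 10 genes, WT 2 for 10 and KO 2 for 1. Leaving out WT 3 raised the median log2 fold change to 1.14.

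The efflux genes were lower in KO, at lower levels than most synthesis enzymes. Abca1, the transporter that loads cholesterol onto lipid-poor apolipoproteins, had 26.6, 23.4 and 9.07 CPM in KO and 38.3, 49.3 and 67.5 CPM in WT, with means of 19.7 ± 9.33 CPM in KO and 51.7 ± 14.8 CPM in WT (SD, n = 3 each). Every KO library was below every WT library, and KO 3 was much the lowest. Its log2 fold change was -1.39 ± 0.39 (95% interval -2.28 to -0.50), with an adjusted p of 0.207 by edgeR and 0.00948 by DESeq2 (up to 0.434 over the 15 alternatives). Without KO 3 the log2 fold change was -1.05. Abcg1, which exports cholesterol to mature lipoprotein particles, had 16.0, 10.3 and 9.77 CPM in KO and 24.3, 21.5 and 18.9 CPM in WT. The groups did not overlap, and the log2 fold change was -0.84 ± 0.23 (adjusted p 0.207 by edgeR and 0.0349 by DESeq2). Mylip, an LXR-induced ubiquitin ligase that targets lipoprotein receptors for degradation, had 18.7, 17.4 and 15.5 CPM in KO and 35.8, 28.1 and 27.9 CPM in WT. It was the most even of the 3 genes within KO, and its log2 fold change was -0.83 ± 0.18 (95% interval -1.24 to -0.43), with an adjusted p of 0.116 by edgeR and 0.00348 by DESeq2.

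The genes of the receptors themselves did not separate the groups. Nr1h2, which encodes the widely expressed LXR beta, had 84.5, 74.7 and 80.6 CPM in KO and 82.2, 95.7 and 76.1 CPM in WT. Nr1h3, which encodes LXR alpha, had 18.2, 18.03 and 17.7 CPM in KO and 20.95, 22.1 and 17.5 CPM in WT. Both overlapped between the groups, and the 95% intervals of the log2 fold change ran from -0.40 to 0.23 and from -0.54 to 0.21.

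Over the 4 LXR targets the median log2 fold change was -0.84. Of the 4, 3 were lower at an unadjusted p below 0.05 (background 7.85%) and were called lower by DESeq2 (background 2.96%). The same 3 did not overlap between the groups (background 10.2%). Srebf1 went the other way, with an unadjusted p of 0.0496 by edgeR. Without KO 3, the median was -0.74 and DESeq2 called 2 of the 4 lower (background 2.62%), Abcg1 having an adjusted p of 0.147 there. The 4 genes do not stand for all LXR targets. The further targets Lpcat3, Pltp, Smpdl3a, Arl4c and Abca7, given below, were not called by DESeq2 (adjusted p 0.454 to 0.832). To set the 2 lists side by side in each library, log2(CPM + 0.5) was averaged over each list relative to the WT mean. The SREBP2 score was 0.96, 0.76 and 0.88 in KO and -0.17, -0.14 and 0.31 in WT. The LXR score was -0.35, -0.69 and -1.01 in KO and 0.01, -0.09 and 0.07 in WT. Their difference was 1.31, 1.45 and 1.89 in KO and -0.19, -0.05 and 0.24 in WT. It averaged 1.55 ± 0.30 in KO, with an SD of 0.22 in WT (n = 3 each), and the groups did not overlap. WT 3 had the highest score on both lists within WT, and KO 3 had the lowest LXR score without having the highest SREBP2 score. The lists were chosen with results of these libraries known, so no test was run on the scores.

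**Figure D3:**
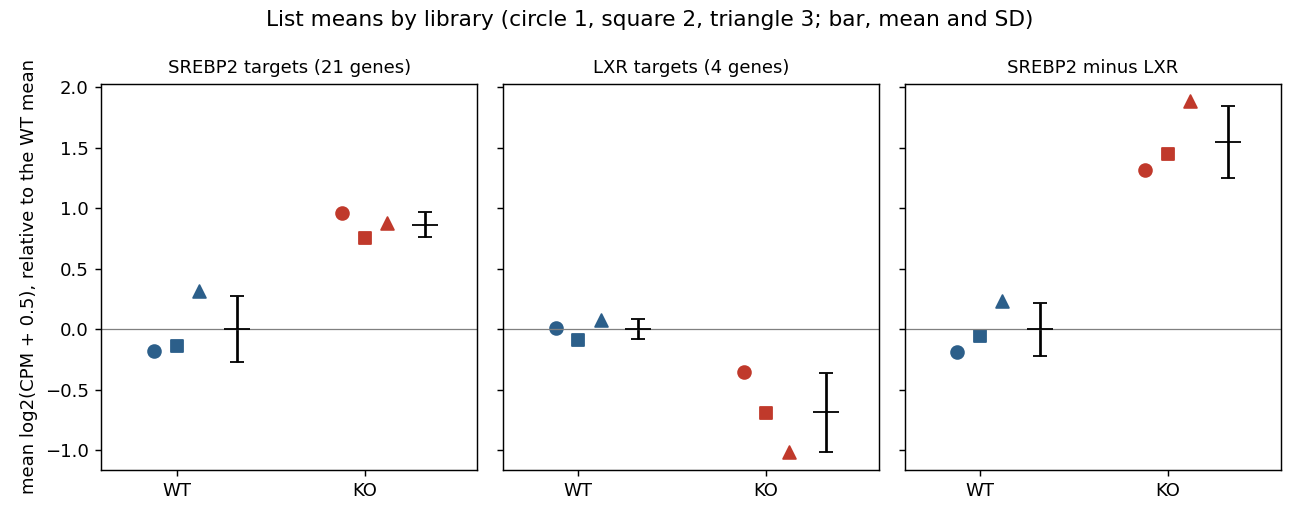
Mean log2(CPM + 0.5) over the 21 SREBP2 targets, over the 4 LXR targets, and the first minus the second, for each library relative to the WT mean, with circles, squares and triangles for replicates 1, 2 and 3 and bars for mean and SD (n = 3). The KO libraries lie at 0.76 to 0.96 in the first panel, at -1.01 to -0.35 in the second and at 1.31 to 1.89 in the third, apart from the WT libraries in each.

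Among the genes of sterol absorption and esterification, Npc1l1 and Soat2 were near the limit of counting, and Scarb1 and Soat1 overlapped between the groups. Npc1l1, the intestinal sterol importer, had 5, 4 and 23 counts in KO and 30, 25 and 33 counts in WT. After scaling, KO 3 lay just under the lowest WT library, with 0.257, 0.248 and 1.23 CPM in KO and 1.28, 1.27 and 1.85 CPM in WT. Its log2 fold change was -1.32 ± 0.63 (adjusted p 0.421 by edgeR), and without KO 3 it was -2.51. Scarb1, a receptor that exchanges cholesterol with lipoprotein particles, had 54.8, 42.3 and 32.6 CPM in KO and 36.4, 42.3 and 57.2 CPM in WT. The groups overlapped widely, with a 95% interval of -0.61 to 0.48 for the log2 fold change. Soat1, which esterifies cholesterol for storage in most cells, had 58.7, 52.1 and 46.2 CPM in KO and 55.2, 55.8 and 57.5 CPM in WT, with a 95% interval of -0.42 to 0.21. Soat2, the enterocyte and hepatocyte form, had 18, 9 and 23 counts in KO and 36, 28 and 28 counts in WT. All KO libraries were below the WT libraries, and its log2 fold change was -0.73 ± 0.39 (adjusted p 0.469 by edgeR).

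Other genes around the pathway were read from lists of neighbouring functions, with the 2 smallest p-values of each list named. Fatty acid synthesis, which SREBP1c drives and SREBP2 shares in part, had 14 tested genes, 13 of them above 0, with a median log2 fold change of 0.43. Of these, 6 were higher at an unadjusted p below 0.05 (background 5.17%) and 7 did not overlap (background 9.35%). DESeq2 called 5 higher (background 0.804%), or 3 without KO 3 (background 0.818%), when Acss2 (adjusted p 0.0998) and Scd1 (0.100) were no longer called. Aacs, which activates acetoacetate for lipid synthesis, had 210.1, 135 and 152 CPM in KO and 71.6, 81.6 and 102 CPM in WT, a log2 fold change of 0.96 ± 0.21 (adjusted p 0.125 by edgeR and 0.00268 by DESeq2). Acss2, which makes cytosolic acetyl-CoA from acetate, had 123, 98.3 and 116 CPM in KO and 65.5, 69.1 and 87.0 CPM in WT, a log2 fold change of 0.61 ± 0.16 (adjusted p 0.185 by edgeR and 0.0437 by DESeq2). For both genes, all KO libraries were above all WT libraries.

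The machinery that cleaves SREBPs and degrades sterol-sensing proteins had 10 tested genes with a median log2 fold change of 0.10. Of these, 0 of 10 had an unadjusted p below 0.05 by edgeR (background 5.17% higher and 7.85% lower). Its smallest p-values belonged to Erlin2 and Erlin1, subunits of a sterol-binding complex of the endoplasmic reticulum, at 0.13 ± 0.12 and 0.17 ± 0.17 (adjusted p 0.710 by edgeR for Erlin2). The isoprenoid branch, which leads from farnesyl diphosphate to ubiquinone, dolichol and prenylated proteins, had 12 tested genes with a median of 0.14. Only Coq2 of this branch, at 0.37 ± 0.16, had an unadjusted p below 0.05 by edgeR (background 5.17% higher and 7.85% lower). Its adjusted p was 0.375 by edgeR, and Pdss1 followed at 0.42 ± 0.21. Intracellular sterol transport had 14 tested genes with a median of -0.03, or -0.07 without KO 3, 7 above 0 and 7 below. Lrp8, a lipoprotein receptor, was at 0.95 ± 0.36 and Gramd1a, which moves sterol from the plasma membrane to the endoplasmic reticulum, was at -0.46 ± 0.19 (adjusted p 0.333 and 0.367 by edgeR).

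Further LXR targets and oxysterol enzymes made up 12 tested genes, of which 10 were below 0 (background 45.8%), with a median log2 fold change of -0.16. Of these, 3 were lower at an unadjusted p below 0.05 (background 7.85%) and DESeq2 called 2 lower (background 2.96%). The 2 called were the oxysterol enzymes Ch25h and Cyp7b1. The further LXR targets Lpcat3, Pltp, Smpdl3a, Arl4c and Abca7 were not called by DESeq2 (adjusted p 0.672, 0.454, 0.787, 0.782 and 0.832). Ch25h, which makes the oxysterol hydroxylated at the end of the side chain, had 2.05, 2.66 and 2.04 CPM in KO and 6.37, 6.67 and 7.86 CPM in WT. The groups were far apart for so low a gene, with a log2 fold change of -1.63 ± 0.25 (95% interval -2.21 to -1.04), an adjusted p of 0.0595 by edgeR and 2.71e-05 by DESeq2. Over the 15 alternatives its adjusted p ran from 2.71e-05 to 0.237 and was below 0.05 in 3. Cyp7b1, which hydroxylates that oxysterol further, had 2.26, 1.80 and 1.23 CPM in KO and 9.19, 5.09 and 6.40 CPM in WT. It was also below WT in every KO library, with a log2 fold change of -1.96 ± 0.35 (adjusted p 0.0742 by edgeR and 5.74e-05 by DESeq2).

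In bulk tissue, fewer cells of a type and less RNA per cell cannot be told apart, so marker genes of cell types were read beside the cholesterol genes. Epithelial markers were present at 15036 to 19155 summed CPM in KO and 14016 to 17240 in WT. Of these, 10 of 12 were above 0 (background 54.2%), with a median log2 fold change of 0.09. At an unadjusted p below 0.05 by edgeR, 0 of 12 differed (background 5.17% higher and 7.85% lower). DESeq2 called 0 of 12 (background 0.804% higher and 2.96% lower). Without KO 3, 7 of 12 were above 0 and the median was 0.016. With libraries scaled to these epithelial markers, the SREBP2 targets had a median of 0.83, with 21 of 21 above 0 and 16 at an unadjusted p below 0.05 (background 1.9%), and the LXR targets a median of -0.90. Crypt base markers were higher in KO for 8 of 8 genes, at 173 to 227 summed CPM against 90.3 to 115 in WT, with a median of 1.28. Of the 8, 7 had an unadjusted p below 0.05 (background 5.17%) and DESeq2 called 7 higher (background 0.804%). Proliferation markers were higher for 10 of 10 genes, at 411 to 507 against 186 to 390 summed CPM, with a median of 0.59. Of the 10, 4 had an unadjusted p below 0.05 by edgeR (background 5.17%) and DESeq2 called 0 of them (background 0.804% higher). Smooth muscle markers were higher for 6 of 6 genes, with a median of 0.66. Of the 6, 5 had an unadjusted p below 0.05 (background 5.17%) and DESeq2 called 3 higher (background 0.804%). The part of these markers in the level of the SREBP2 targets was not tested.

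Macrophage markers were lower in KO for 10 of 10 genes, at 339 to 918 summed CPM against 796 to 1306 in WT, with a median of -0.80, or -0.45 without KO 3. Of the 10, 3 had an unadjusted p below 0.05 (background 7.85%) and DESeq2 called 1 lower (background 2.96%). The lowest macrophage sum and the lowest Abca1 value belonged to the same library, KO 3. Endothelial markers had a median of -0.80, or -0.45 without KO 3. Fibroblast markers had a median of -0.38, or -0.22 without KO 3, when 4 of 8 were above 0. B and plasma cell markers had a median of -0.93, or -1.71 without KO 3, and T cell markers -0.29, or -0.84 without KO 3. Neutrophil and adipocyte markers had medians of -2.68 and -1.16, or -2.43 and -1.27 without KO 3. At an unadjusted p below 0.05 by edgeR, 7.85% of all tested genes were lower. The share was 2 of 7 for endothelial, 3 of 8 for fibroblast and 3 of 6 for B and plasma cell markers. It was 0 of 6 for T cell, 6 of 8 for neutrophil and 1 of 4 for adipocyte markers. DESeq2 called 1, 0, 3, 0, 5 and 1 of these markers lower, in the same order (background 2.96%). One neutrophil marker and one adipocyte marker had 0 counts in at least 1 library, and no marker of the other lists did. The part of these markers in the level of Abca1, Abcg1, Mylip, Ch25h and Cyp7b1 was not tested.

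**Figure D4:**
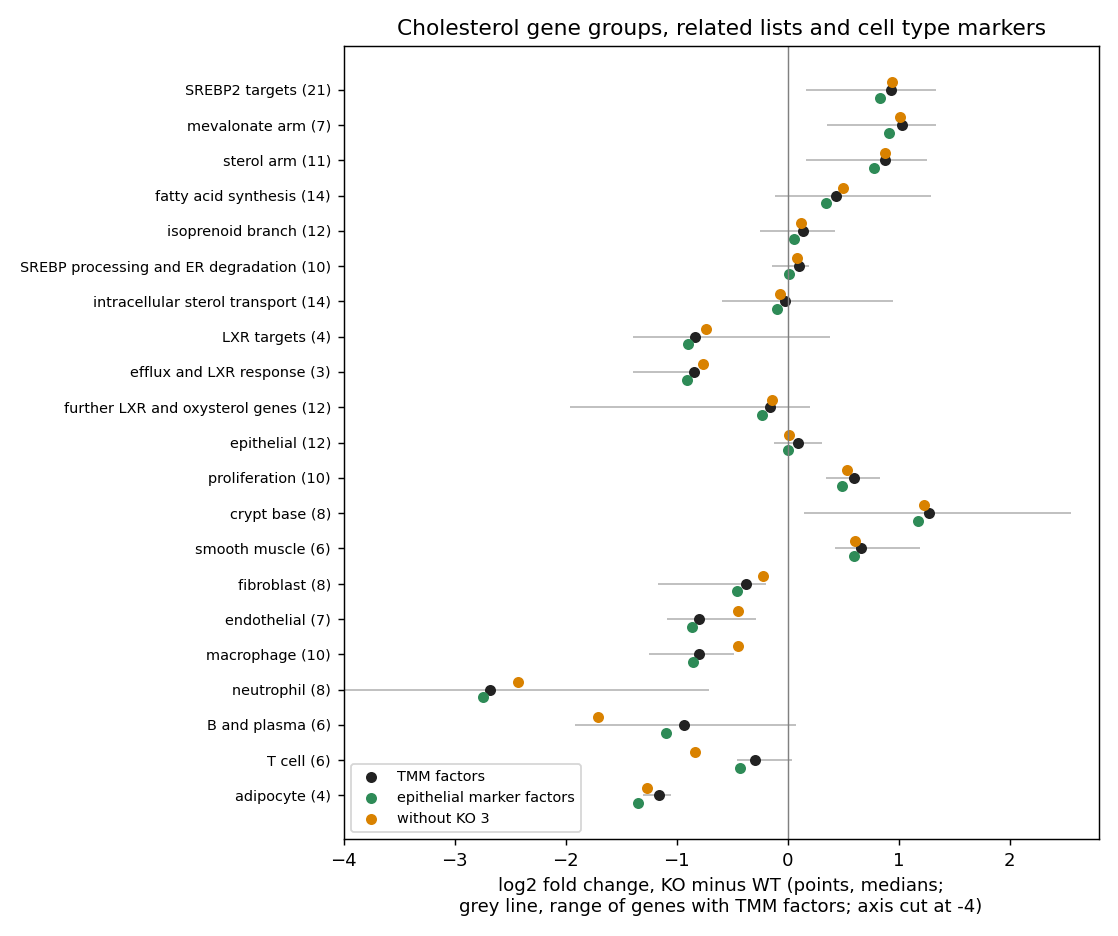
Median log2 fold change (points, KO minus WT) of the cholesterol gene groups, the related lists and the cell type markers, with TMM factors (black), with libraries scaled to epithelial markers (green) and without KO 3 (orange), and the range over genes (grey lines, cut at -4). The SREBP2 targets lie at 0.93, 0.83 and 0.94 and the LXR targets at -0.84, -0.90 and -0.74 under the 3 settings.

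Each of the 34 genes was placed by its Ensembl identifier in the GENCODE M21 annotation of GRCm38. Hmgcs1 (ENSMUSG00000093930) lies at chr13:119690379-119708260 on the plus strand, Cyp51 (ENSMUSG00000001467) at chr5:4081145-4104746 on the minus strand and Insig1 (ENSMUSG00000045294) at chr5:28071363-28078662 on the plus strand. Abca1 (ENSMUSG00000015243) lies at chr4:53030787-53159895 on the minus strand and Mylip (ENSMUSG00000038175) at chr13:45389742-45412022 on the plus strand. For 10 of the 34 genes an exon overlaps an exon of another gene, such as Cyp51 with Akap9 and Fdft1 with Ctsb. Whether reads were counted by strand is not given in the sources used here, so reads in those stretches are uncertain.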

How the data were processed

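Total RNA of colon tissue from 3 KO and 3 WT libraries was sequenced. Whole-number read counts and TPM per gene entered as deposited by the authors. GRCm38, mm10 and mm39 appear in the submitters' processing notes, with no roles. No aligner, counter, annotation or strand setting is given in the sources used here. Group means, p-values and log2 fold changes of the authors were left out.

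Counts were fitted with edgeR 4.0.16 (R 4.3.3), using its quasi-likelihood F-test, TMM factors and default expression filter, over 14553 genes, with a call at an adjusted p below 0.05. No pair of libraries matched within sampling noise (lowest chi-square per degree of freedom 44.8). The biological coefficient of variation was 29.0%. SEs derive from the F statistic. Alternatives were DESeq2 1.42.0, limma-voom (limma 3.58.1), limma on log2(TPM + 1) of the deposited TPM, other scaling factors and filters, library factors set by epithelial markers, a replicate block and leaving out each library. DESeq2 without KO 3 was added after the data were seen. The script was tested on simulated data.

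The 34 members and all lists were chosen with earlier results of these data known. Values in each library were given for the 3 mevalonate and 5 sterol enzymes with the smallest p and for all other groups, and the 2 smallest p-values were named in each neighbouring list. Library totals limit the precision of low genes such as Npc1l1 and Soat2.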

Additional observations from a re-analysis of the deposited data

How the results depend on the processing

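The number of genes called among all tested genes depended strongly on the method. It was 23 by edgeR as described, 548 with DESeq2, 69 with limma on log2(TPM + 1), 69 without a count filter, 39 with upper-quartile factors, 9 with median-ratio factors and 1 with epithelial marker factors, and it ran from 1 to 29 when each library was left out in turn. The median log2 fold change of the SREBP2 targets ran from 0.80 to 1.14 when each library was left out, the highest value being without WT 3, and that of the LXR targets from -1.0 to -0.73. Their signs held in each of the 15 alternatives. Between 16 and 18 SREBP2 targets were higher at an unadjusted p below 0.05. The background was 5.17% of all tested genes with TMM factors and 1.9% with epithelial marker factors, where the count was 16. It is not given for the other alternatives.

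Nothing in the labels says that the same number marks a pair, so the numbers were not taken as pairs. Deviations of same-numbered KO and WT libraries from their group means had correlations of -0.42, -0.15 and -0.43. With 3 libraries per group these values are tied to each other and cannot show whether the numbers mark pairs. With the replicate number as a block, 81 genes were called, and the medians of the SREBP2 and LXR targets were 0.94 and -0.85.

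Of 508 values of single members under the alternatives, 19 were called where the main test made no call, all with DESeq2. That method called 0.804% of all tested genes higher and 2.96% lower. Another 6 values changed sign. All 6 came from leaving out a library. The log2 fold change then ran from -0.017 (without KO 3) to 0.29 for Ebp, from -0.23 to 0.015 (without KO 2) for Scap, from -0.22 to 0.057 (without KO 1) for Insig2 and from -0.15 to 0.015 (without WT 2) for Nr1h2. For Scarb1 it ran from -0.27 to 0.14, being 0.10 without KO 3 and 0.14 without WT 3.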

Other observations

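Within fatty acid synthesis, 3 further genes are given that were chosen after their values were seen. Scd1, a desaturase that makes monounsaturated fatty acids, had 98.5, 151 and 238 CPM in KO and 43.7, 72.3 and 83.8 CPM in WT, a log2 fold change of 1.29 ± 0.35 (adjusted p 0.195 by edgeR and 0.00786 by DESeq2). KO 3, which was not the highest library for most sterol enzymes, was the highest for Scd1, and without it the value was 0.91. Its paralogue Scd2 had 1511, 1406 and 1185 CPM in KO and 543, 441 and 1031 CPM in WT, where KO 3 was the lowest KO library, and a log2 fold change of 1.03 ± 0.32 (adjusted p 0.248 by edgeR and 0.0268 by DESeq2). Fasn, the fatty acid synthase, had 464, 324 and 309 CPM in KO and 166, 212 and 263 CPM in WT, a log2 fold change of 0.78 ± 0.24 (adjusted p 0.240 by edgeR and 0.0409 by DESeq2). For all 3 genes the KO libraries were above the WT libraries and WT 3 was the highest of the WT group.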
